A study of Homo sapiens with 5 samples.

Results

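The genes that write, maintain and remove DNA methylation were followed through RNA sequencing of HEK293T cells in which dCas9 methyltransferases had been delivered. The 10 genes were chosen by name: the methyltransferases DNMT1, DNMT3A, DNMT3B and DNMT3L, the hemimethylation readers UHRF1 and UHRF2, the dioxygenases TET1, TET2 and TET3, and the glycosylase TDG. All 10 were found among the 19716 genes with a read in any library, and 9 were listed in all 5 libraries. HEK293T cells are a line from human embryonic kidney with the large T antigen of SV40. Of the 5 libraries, 4 came from cells given 5 uPA guides (uPA is the protein name of PLAU) with dCas9-BFP joined to DNMT1, DNMT3A, DNMT3B or EGFP (the fusions, each named here by its partner), and 1 from cells that received pUC19, which encodes neither dCas9 nor a guide. dCas9 is a Cas9 that binds DNA without cutting it, BFP is a blue fluorescent protein, the methyltransferase partners are catalytic domains driven by the PGK promoter, and EGFP is a fluorescent protein in the place of such a domain. All cells received 1 ug of plasmid in total and were collected after 48 h. The labels describe sorting for BFP in every group, which is not clear for pUC19, since it encodes no BFP. Each group was 1 library, so no difference had a replicate check and each test below compared libraries.

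DNA methylation in mammals is set on CpG dinucleotides by DNMT3A and DNMT3B, with DNMT3L as a partner that has no activity of its own, and is copied after replication by DNMT1, which UHRF1 brings to hemimethylated DNA. TET1, TET2 and TET3 oxidise 5-methylcytosine, and TDG excises the oxidised bases so that base excision repair can restore cytosine. UHRF2 is a relative of UHRF1 that also binds oxidised methylcytosine. The DNMT3A and DNMT3B fusions add an active methyltransferase domain to a cell that already holds this machinery. The paper found higher CpG methylation at the uPA promoter with these fusions, but not with those of DNMT1 or EGFP. It describes the DNMT1 catalytic domain as inactive by itself. The libraries show the level of the endogenous genes beside the fusions, except that of a fused gene in its own library.

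The guides that all 4 fusion libraries shared are shown with their closest matches near the starts of the members. Each is written from 5′ to 3′, and capitals mark the 12 bases next to the PAM, the NGG motif that dCas9 needs.
uPA-T1: gtgagcgtTGCGGAAGCACG
uPA-T2: gagccgggCGGGAGAGGGAG
uPA-T3: gagtcaagGCGCCCCGTCCC
uPA-T4: gcccggggATCTCAGGACCG
uPA-T5: gggacaggTGGACCCTGGCC
The guides were compared with RefSeq promoter windows of 300 bases on GRCh38.p14 (250 before and 50 after a start), where 9 of the 10 members matched, with 20 windows. At sites followed by NGG, no member window came within 5 mismatches of any guide. Of all windows, 0.0228%, 1.79%, 0.094%, 0.0826% and 0.165% did so for uPA-T1 to uPA-T5. A count of 0 among 20 member windows is near such a background. The closest member site of each guide is listed with its position on GRCh38.p14 and its strand, matching bases in capitals and the PAM as the last 3 letters.
uPA-T1 in UHRF2, chr9:6413042-6413064, minus strand: GaGgGCGggtCGGAgGggCGggg
uPA-T2 in DNMT3A, chr2:25341928-25341950, minus strand: agGCgGGcCGGGAGgGaGgGagg
uPA-T3 in DNMT3A, chr2:25342699-25342721, minus strand: GgagCctGGCGCtCCGaCCttgg
uPA-T4 in DNMT3A, chr2:25342523-25342545, minus strand: GCCgGGGGcTCcgcGGgCtGcgg
uPA-T5 in DNMT3A, chr2:25342010-25342032, minus strand: GGGAggGGgGGACCCgGcggagg
These sites had 8, 7, 8, 7 and 7 mismatches in the order listed. Sites as close or closer were found in 11.2%, 19.4%, 13.7%, 4.18% and 5.27% of all 35114 windows. By contrast, uPA-T1, uPA-T2 and uPA-T5 each had a site with 0 mismatches in a PLAU window. The closest sites of uPA-T3 and uPA-T4 in these PLAU windows had 8 and 10 mismatches. Only these windows were searched, and the letters say nothing about binding.

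On GRCh37 the methyltransferase genes lie at chr19:10244018-10341962 (DNMT1), chr2:25450724-25565459 (DNMT3A), chr20:31350191-31397165 (DNMT3B) and chr21:45666222-45682099 (DNMT3L). UHRF1 lies at chr19:4903092-4962165 and UHRF2 at chr9:6413151-6507054. TET1 lies at chr10:70320094-70454244, TET2 at chr4:106067032-106200973, TET3 at chr2:74212037-74335303 and TDG at chr12:104359600-104382652. Reads were counted over the whole transcript of each gene. The level of each gene was measured as TPM, in which reads are divided by transcript length and scaled to a common sum. Genes can thus be compared as far as reads cover their transcripts alike. In pUC19 the order from high to low was DNMT1 (175.5 TPM), UHRF1 (120.8), TDG (68.2), DNMT3B (45.1), UHRF2 (22.6), TET1 (19.1), DNMT3A (12.0), TET3 (9.08) and TET2 (8.74). TET3 and TET2 could not be told apart by counting error there, with a ratio of TET2 to TET3 of 0.962 (95% exact interval 0.894 to 1.035). DNMT1 and UHRF1, which act together in maintenance, stood at the top of the order, and the 3 TET genes and DNMT3A at its foot. DNMT3L was not detectable at this depth: 1 read was found in pUC19 and 0 in each fusion library, where 3 reads would have corresponded to between 0.137 and 0.155 TPM.

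**Figure D1:**
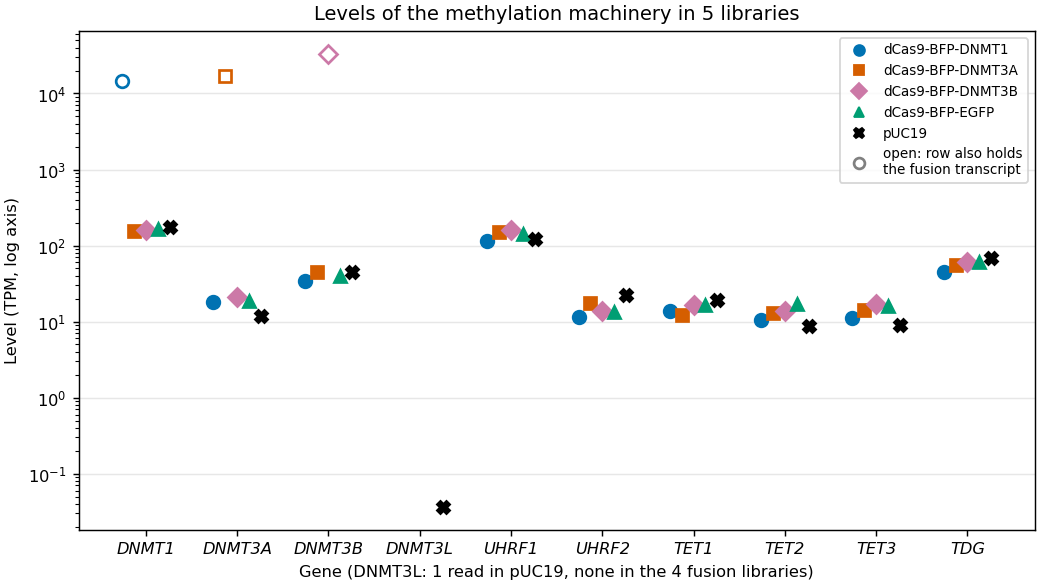
Level of each gene (TPM, log axis) in the 5 libraries, with 1 point per library and open symbols where the row also holds the transcript of the fusion. The 3 open symbols lie between 14581.5 and 33141.0 TPM, and all other points lie at or below 175.5 TPM.

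The rows of DNMT1, DNMT3A and DNMT3B held fusion and endogenous transcripts together in 1 library each, because reads from a catalytic domain align to the gene it was taken from. DNMT1 was measured at 14581.5 TPM in the dCas9-BFP-DNMT1 library against 155.8, 158.4, 162.8 and 175.5 TPM in the libraries of DNMT3A, DNMT3B, EGFP and pUC19. DNMT3A was measured at 16745.1 TPM in its own fusion library against 18.1, 21.3, 18.9 and 12.0 TPM in those of DNMT1, DNMT3B, EGFP and pUC19. DNMT3B was measured at 33141.0 TPM in its own fusion library against 34.2, 45.1, 39.3 and 45.1 TPM in those of DNMT1, DNMT3A, EGFP and pUC19. Each own-fusion row was the highest of its library, at 89.4, 953 and 810 times the mean of the other 4 libraries for DNMT1, DNMT3A and DNMT3B. The excess over that mean (± SD, n = 4 libraries) was 14418.4 TPM over 163.1 ± 8.75 for DNMT1, 16727.5 TPM over 17.6 ± 3.93 for DNMT3A and 33100.1 TPM over 40.9 ± 5.25 for DNMT3B. That mean was 1.12%, 0.105% and 0.123% of the own-fusion row. The endogenous level in the own-fusion library could not be read. These TPM values divide the reads by whole transcript lengths of 5425, 4395 and 4353 bases for DNMT1, DNMT3A and DNMT3B. A fusion carries only the catalytic domain of its partner. The excess and the folds are therefore not levels of the fusion transcripts and do not rank the partners. The 3 rows together took 3.54%, 3.23% and 6.02% of the reads where DNMT1, DNMT3A and DNMT3B, respectively, were the partner, and 0.0489% and 0.0530% with EGFP and in pUC19. Leaving them out of the scaling moved the log2 ratios of the other members to pUC19 by at most 0.0486. TMM scaling, an alternative to TPM, moved them by up to 0.13, with the largest shifts in the DNMT1 fusion library. There the log2 ratio of TDG to pUC19 went from -0.588 to -0.46 and that of UHRF2 from -0.984 to -0.858. The counting intervals below do not cover such shifts.

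No member had a call against pUC19. A call needed an adjusted p of 0.001 or less in a two-sided exact conditional binomial test (Benjamini-Hochberg over all genes) together with a ratio of TPM + 0.1 of 2 or more in either direction. Rows that held a fusion transcript were left out. Of the members, 0 of 9, 0 of 9, 0 of 9 and 0 of 10 were called in dCas9-BFP-DNMT1, -DNMT3A, -DNMT3B and -EGFP, where 5.16%, 9.36%, 8.76% and 5.70% of all genes tested were called. A count of 0 among 9 or 10 genes is near a background of that size. The 4 comparisons share the pUC19 library. Most members nonetheless differed from pUC19 beyond counting error in their share of all reads. The exact test compares these shares, whereas the intervals below are on the TPM scale, so the test and an interval can differ. At any fold, 7, 7, 8 and 9 members reached the adjusted p in the exact test, as did 40.7%, 46.9%, 46.4% and 41.3% of all genes. Among genes with at least 1000 reads in the pair, 66.9%, 74.6%, 74.4% and 68.4% did so, shares to set beside the members' counts. In bulk RNA, fewer cells that express a gene and less RNA per cell cannot be told apart.

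**Figure D2:**
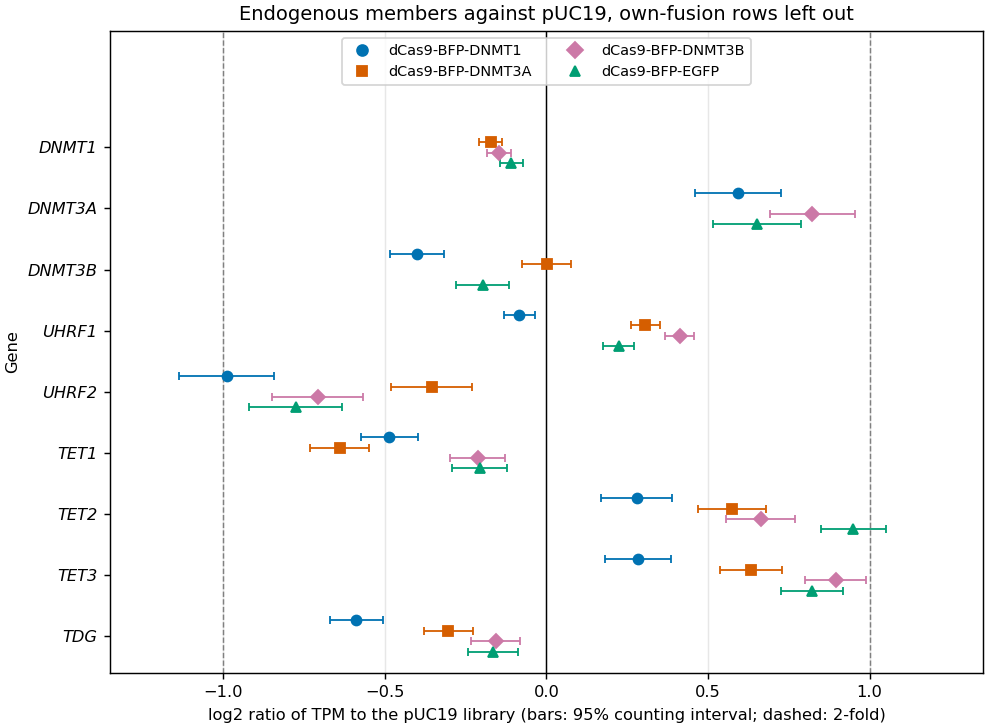
log2 ratio of TPM of 9 members in each fusion library to pUC19, with bars for the 95% exact counting interval and dashed lines at 2-fold. UHRF2 lies furthest to the left, at -0.99 in the DNMT1 fusion library, and TET2 furthest to the right, at 0.95 in the EGFP fusion library, both inside the dashed lines.

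Among the readers of hemimethylated DNA, UHRF1 and UHRF2 differed in their position relative to pUC19. UHRF2 was measured at 11.4, 17.7, 13.9 and 13.2 TPM with DNMT1, DNMT3A, DNMT3B and EGFP as partner and at 22.6 TPM in pUC19. All 4 fusion libraries were below pUC19, and the ratios were 0.503 (95% interval 0.454 to 0.557), 0.782 (0.716 to 0.853), 0.612 (0.555 to 0.675) and 0.585 (0.529 to 0.646) in that order. Of all genes, 8.2%, 32.2%, 15.4% and 10.7% had a lower ratio than UHRF2 in these libraries. UHRF1 was measured at 114.0, 149.3, 160.7 and 141.1 TPM in the fusion libraries and at 120.8 TPM in pUC19. It was below pUC19 in the DNMT1 fusion library (ratio 0.944, 0.912 to 0.977) and above it in the DNMT3A (1.24, 1.20 to 1.28), DNMT3B (1.33, 1.29 to 1.37) and EGFP (1.17, 1.13 to 1.21) fusion libraries. Under TMM scaling the first of these turned to a log2 ratio of 0.045, while the other 3 stayed above 0. UHRF1 was 5.34 times as high as UHRF2 in pUC19 and 10.0, 8.44, 11.6 and 10.7 times as high in the fusion libraries.

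The only RefSeq window of UHRF2 held 26 CpG dinucleotides, a number that 30.1% of all windows reached. Of the 2 windows of TET2, whose level is described next, the CpG-rich one held 35, reached by 14.1%. The other held 13, reached by 51.7%, and is not shown. The UHRF2 window and the CpG-rich TET2 window are shown because CpG is the substrate of the fused DNMT3A and DNMT3B domains. They are written with CG in capitals, on GRCh38.p14 and the plus strand.
UHRF2, chr9:6412949-6413248: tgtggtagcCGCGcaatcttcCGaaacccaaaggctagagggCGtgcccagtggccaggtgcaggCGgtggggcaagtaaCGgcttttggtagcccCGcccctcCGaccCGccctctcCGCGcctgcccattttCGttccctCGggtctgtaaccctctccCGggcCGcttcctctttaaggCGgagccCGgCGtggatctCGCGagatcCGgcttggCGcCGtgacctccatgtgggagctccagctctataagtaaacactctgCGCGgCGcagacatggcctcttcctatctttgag
TET2, chr4:105146626-105146925: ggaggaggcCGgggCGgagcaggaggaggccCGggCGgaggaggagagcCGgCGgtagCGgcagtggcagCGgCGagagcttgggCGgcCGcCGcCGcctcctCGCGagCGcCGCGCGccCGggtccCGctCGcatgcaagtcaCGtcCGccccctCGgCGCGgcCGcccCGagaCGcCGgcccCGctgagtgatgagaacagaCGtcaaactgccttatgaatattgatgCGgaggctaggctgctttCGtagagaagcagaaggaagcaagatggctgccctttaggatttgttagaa
Over the 20 member windows the number of CpG dinucleotides ran from 3 to 46 with a median of 26, against a median of 14 over all windows. The 20 windows came from 9 members, some with several overlapping windows, and were not set against windows of expressed genes. No methylation was measured in these RNA libraries.

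The TET genes lay on both sides of pUC19. TET1 was measured at 13.6, 12.3, 16.5 and 16.6 TPM with DNMT1, DNMT3A, DNMT3B and EGFP as partner and at 19.1 TPM in pUC19. TET2 was measured at 10.6, 13.0, 13.8 and 16.9 TPM in the fusion libraries and at 8.74 TPM in pUC19. TET3 was measured at 11.1, 14.1, 16.9 and 16.1 TPM in the fusion libraries and at 9.08 TPM in pUC19. TET1 was thus lower, and TET2 and TET3 higher, in each fusion library than in pUC19, and no counting interval of these 12 ratios held 1. The ratios to pUC19 ran from 0.642 (0.603 to 0.683, DNMT3A fusion) to 0.867 (0.817 to 0.919, EGFP fusion) for TET1. They ran from 1.21 (1.12 to 1.31, DNMT1 fusion) to 1.93 (1.80 to 2.07, EGFP fusion) for TET2, and from 1.22 (1.13 to 1.31, DNMT1 fusion) to 1.86 (1.74 to 1.99, DNMT3B fusion) for TET3. TET2 and TET3 were lowest among the fusions where the partner was DNMT1. The highest TET2 level was found with EGFP, the partner without a methyltransferase domain.

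TET1 made up 51.75% of the summed TET TPM in pUC19 and 38.65%, 31.15%, 34.93% and 33.46% with DNMT1, DNMT3A, DNMT3B and EGFP as partner. The sum was 36.9 TPM in pUC19 and 35.3, 39.4, 47.2 and 49.5 TPM in the fusion libraries. In pUC19 TET1 was 2.19 times as high as TET2 (95% interval 2.05 to 2.33). In the fusion libraries the same ratio was 1.29 (1.20 to 1.39), 0.942 (0.877 to 1.01), 1.19 (1.11 to 1.28) and 0.981 (0.919 to 1.05). TET1 and TET2 could therefore not be told apart by counting error in the DNMT3A and EGFP fusion libraries. Reads covered 69.55% to 75.48% of the TET2 transcript over the libraries. For TET1 and TET3 they covered 85.25% to 93.7% and 93.88% to 97.34%. What this uneven coverage did to the TET shares and ratios was not tested.

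**Figure D3:**
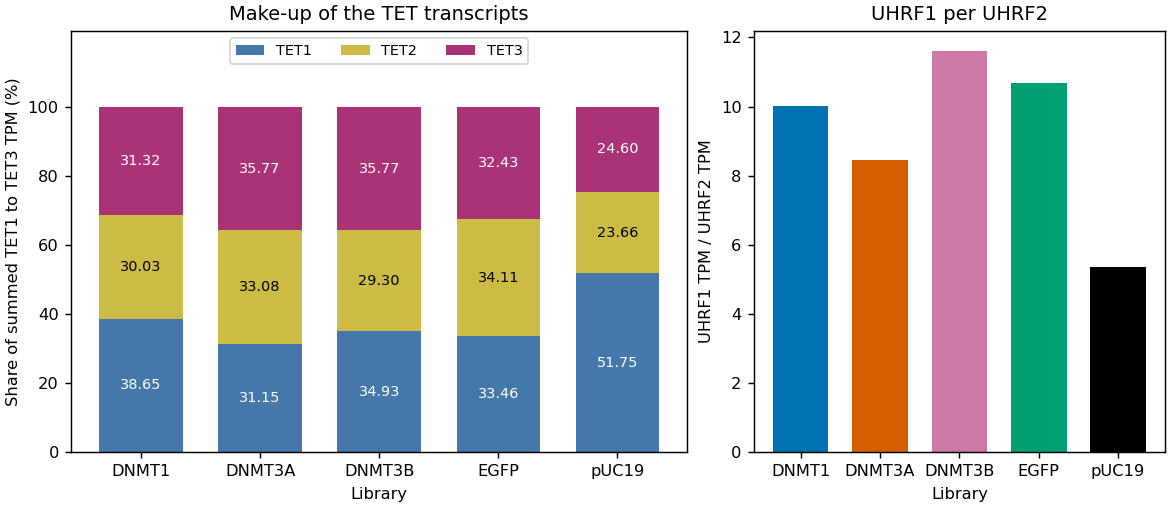
Left, share of TET1, TET2 and TET3 in their summed TPM (percent) in each library, and right, TPM of UHRF1 divided by TPM of UHRF2. The TET1 share is 51.75% in pUC19 and at most 38.65% in the fusions, and the UHRF1 to UHRF2 ratio is 5.34 in pUC19 and at least 8.44 in the fusions.

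TDG, which acts after the TET enzymes, was measured at 45.3, 55.2, 61.2 and 60.8 TPM with DNMT1, DNMT3A, DNMT3B and EGFP as partner and at 68.2 TPM in pUC19. It was lower in all 4 fusion libraries, with ratios from 0.665 (0.628 to 0.704, DNMT1 fusion) to 0.897 (0.850 to 0.946, DNMT3B fusion). Endogenous DNMT3A, read in the 3 libraries without its fusion, was higher than in pUC19, with ratios of 1.51 (1.37 to 1.66), 1.77 (1.61 to 1.94) and 1.57 (1.43 to 1.73) in the DNMT1, DNMT3B and EGFP fusion libraries. In those libraries its reads were 0.105%, 0.112% and 0.0999% of the DNMT3A reads in its own fusion library, and 0.0898% in pUC19. Whether some of these reads were carried over from that library was not tested. Endogenous DNMT3B had ratios of 0.758 (0.715 to 0.803), 1.00 (0.949 to 1.05) and 0.872 (0.824 to 0.923) in the DNMT1, DNMT3A and EGFP fusion libraries. Endogenous DNMT1, the maintenance enzyme, was below pUC19, with ratios of 0.888 (0.866 to 0.910), 0.903 (0.880 to 0.926) and 0.928 (0.904 to 0.952) in the DNMT3A, DNMT3B and EGFP fusion libraries. Endogenous DNMT3A thus lay above pUC19 in each of 3 libraries, while DNMT3B could not be told apart from pUC19 by counting error with the DNMT3A partner and lay below it in the other two.

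To set these differences against a spread, the 4 fusion libraries were fitted against pUC19 with edgeR's quasi-likelihood test, in which the spread comes from 4 different constructs. Of 9 members tested, 0 passed an adjusted p of 0.05, where 0.737% of all genes passed, and 4 had an unadjusted p below 0.05, where 18.0% of all genes did. These 4 were TET3 (log2 fold change 0.72 ± 0.24 SE, adjusted p = 0.173), TET2 (0.68 ± 0.25, adjusted p = 0.202), UHRF2 (-0.64 ± 0.24, adjusted p = 0.217) and DNMT3A without its own fusion library (0.75 ± 0.26, adjusted p = 0.231). With DESeq2 0 members passed as well, and the smallest adjusted p was 0.0754, for TET3. TET1 (-0.33 ± 0.22), TDG (-0.25 ± 0.20) and UHRF1 (0.27 ± 0.20) had adjusted p of 0.454, 0.534 and 0.50 in edgeR. With an offset for GC content and length the log2 fold changes of TET1, TDG and UHRF1 were -0.18, -0.027 and 0.20. Those of TET3, TET2, UHRF2 and DNMT3A were 0.66, 0.81, -0.54 and 0.70 with that offset.

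The question of what the methyltransferase domain adds was addressed against dCas9-BFP-EGFP, which shared the guides and dCas9. Of the members, 0 of 8 were called in each of the DNMT1, DNMT3A and DNMT3B fusions against EGFP, where 1.44%, 3.97% and 3.50% of all genes were called. The 3 comparisons share the EGFP library. TET2 was below EGFP in each, with ratios of 0.628 (0.584 to 0.674), 0.771 (0.721 to 0.825) and 0.820 (0.766 to 0.877). TET3 was below EGFP with DNMT1 (0.689, 0.644 to 0.737) and DNMT3A (0.877, 0.824 to 0.934) and could not be told apart from it with DNMT3B (1.05, 0.989 to 1.12). UHRF2 was above EGFP with DNMT3A (1.34, 1.20 to 1.49) and within counting error of it with DNMT3B (1.05, 0.931 to 1.18). With DNMT1 its TPM ratio to EGFP was 0.861 (0.763 to 0.972), but the exact test gave an adjusted p of 0.143. Under TMM scaling the log2 ratio of UHRF2 with DNMT1 to EGFP was -0.0755. Between the libraries of the de novo domains DNMT3A and DNMT3B, 0 of 7 members were called, where 0.215% of all genes were called. With DNMT3A the level of UHRF2 was 1.28 times (1.15 to 1.42) and that of TET1 0.743 times (0.694 to 0.797) the level with DNMT3B.

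The fit of the DNMT3A and DNMT3B fusions against the DNMT1 and EGFP fusions tested whether members differed with the kind of domain. Of the 7 members never fused, 6 were tested in edgeR and 0 passed an adjusted p of 0.05, where 11.0% of all genes passed, and 0 had an unadjusted p below 0.05. DESeq2 gave 0 on both counts. The largest estimates were those of UHRF2 (log2 fold change 0.31 ± 0.17 SE, adjusted p = 0.257) and UHRF1 (0.23 ± 0.12, adjusted p = 0.234). Without the EGFP fusion library UHRF1 passed (0.32 ± 0.11, adjusted p = 0.0293 in edgeR), 1 of 6 members where 24.7% of all genes passed. TET1, TET2, TET3 and TDG had estimates between -0.12 and 0.15.

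Genes that work with the members were followed in 8 lists of 99 genes, of which 97 were listed in a library. Of these, 23 were called in at least 1 fusion against pUC19, as were 14.8% of all 19716 genes with a read in any library. Only 16001 of the 19716 passed the read filter of edgeR, so that background holds low genes that are hard to call. The lists were not set against genes of like level. Higher calls were given to 1.53%, 4.40%, 4.47% and 2.60% of all genes with DNMT1, DNMT3A, DNMT3B and EGFP as partner and lower calls to 3.63%, 4.96%, 4.29% and 3.10%. The list on CpG island protection held 9 genes, among them factors that bind unmethylated CpG or methylate H3K4 and the H3K4 demethylases KDM1A and KDM1B, with 1, 2, 4 and 1 higher calls and 1 lower call in each fusion. SETD1B, a histone H3K4 methyltransferase, was called in all 4 fusions, at 17.9, 17.9, 24.6 and 18.9 TPM against 8.81 TPM in pUC19. KDM1B, which removes that mark and is needed for DNA methylation in oocytes, was called lower in all 4, at 11.7, 7.27, 8.55 and 13.1 TPM against 29.3 TPM in pUC19. They were the only ones of the 97 list genes called the same way in all 4 fusions, a count near the 1.60% of all genes called so. SETD1B lay just past the fold threshold with DNMT1 and DNMT3A, at a log2 ratio of 1.02 in both. With a pseudocount of 1 TPM SETD1B was called in 2 of the 4 fusions and KDM1B still in 4. SETD1A, a paralogue of SETD1B, was called higher with DNMT3A and DNMT3B (114.3 and 131.3 TPM against 48.9 in pUC19) and KDM1A, a paralogue of KDM1B, in none (160.9 to 170.4 TPM against 235.9).

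Methyl-CpG readers gave 0, 1, 4 and 1 higher and 1, 1, 0 and 0 lower calls among 10 genes. MBD3, a subunit of the NuRD complex, was measured at 164.9, 222.5, 205.3 and 164.2 TPM with DNMT1, DNMT3A, DNMT3B and EGFP as partner against 93.3 TPM in pUC19 and was called with DNMT3A and DNMT3B. MBD5 was called higher with DNMT3B and EGFP (16.5 and 16.3 TPM against 7.44 in pUC19). ZBTB33, which encodes the methyl-CpG binding protein Kaiso, was called lower with DNMT1 and DNMT3A (11.8 and 14.3 TPM against 31.7 in pUC19). MBD2 was lower in all 4 fusions without a call, at 12.5 to 15.7 TPM against 20.6 TPM. Genes of this list thus lay on both sides of pUC19, and MBD3 and MBD5 are not known to bind methylated CpG selectively.

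Demethylation and base excision repair gave 0, 1, 0 and 0 higher and 0, 3, 3 and 3 lower calls among 19 genes. The median log2 ratio of this list was -0.37, -0.47, -0.58 and -0.33, against -0.15, -0.062, -0.051 and -0.0032 over all genes. GADD45B, a stress-induced factor linked to demethylation, was called lower with DNMT3A, DNMT3B and EGFP (6.99, 6.31 and 6.55 TPM against 22.7 in pUC19), while its relative GADD45A was called higher with DNMT3A alone (124.8 TPM against 51.1). CXXC4, a binding partner of TET2, was called lower with DNMT3A (1.49 TPM against 3.15).

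Partners of maintenance gave 0, 1, 1 and 1 higher and 0, 1, 0 and 0 lower calls among 17 genes. SUV39H1, an H3K9 methyltransferase, was called higher with DNMT3A, DNMT3B and EGFP (119.5, 128.1 and 100.9 TPM against 46.1 in pUC19), whereas EHMT2, which also methylates H3K9, was at 39.6 to 50.3 TPM against 65.5 TPM without a call. DMAP1, a binding partner of DNMT1, was at 52.7 to 67.1 TPM against 42.3 TPM without a call. KIAA0101, which encodes a PCNA-binding protein, was at 28.5 to 36.7 TPM against 51.9 TPM without a call. In the S-adenosylmethionine cycle, which supplies the methyl group, MAT2A and MTRR were at 80.4 to 106.0 TPM against 136.1 and at 27.3 to 36.3 TPM against 43.6, both without a call. H3K36 methyltransferases, whose mark recruits the de novo enzymes, had 0 calls among 5 genes, and WHSC1 and ASH1L were at 70.8 to 85.4 TPM against 64.9 and at 18.5 to 27.0 TPM against 17.3.

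S phase genes were listed because DNMT1 and UHRF1 are made for replication. Among 17 genes they had 0 higher calls in any fusion and 1, 1, 0 and 1 lower calls, all of CCNE1, the G1/S cyclin, at 23.4, 24.0 and 17.1 TPM with DNMT1, DNMT3A and EGFP against 52.3 TPM in pUC19. The list had a median log2 ratio of -0.28, 0.23, 0.23 and -0.12 beside UHRF1 at -0.083, 0.31, 0.41 and 0.22, and its part in the UHRF1 levels was not tested. RRM2 was at 76.3 to 91.8 TPM against 136.3 TPM, and E2F1 and CDT1 were at 104.8 to 141.6 TPM against 77.9 and at 258.6 to 358.2 TPM against 209.4, all without a call. Of 12 germline genes that promoter methylation silences, at most 10 could be tested in a comparison, with 0, 2, 1 and 0 higher calls and 0 lower calls. TEX14 was called higher with DNMT3A and DNMT3B (2.61 and 2.69 TPM against 1.08 in pUC19), and BRDT was at 0.453 to 0.587 TPM against 0.337 TPM without a call. The other call with DNMT3A, named after its values were seen, was SYCP3, with 12 reads there against 0 in pUC19.

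**Figure D4:**
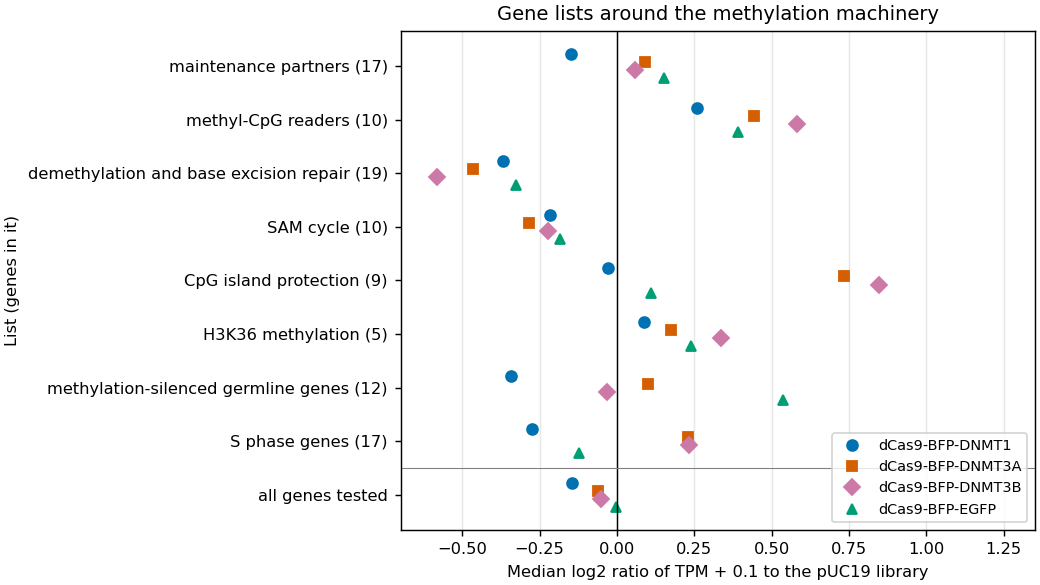
Median log2 ratio of TPM + 0.1 to pUC19 of 8 gene lists in each fusion library, with the median over all genes tested in the bottom row. The list of demethylation and base excision repair has medians from -0.58 to -0.33 in the 4 fusion libraries, and that of methyl-CpG readers from 0.26 to 0.58.

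In the edgeR fit of all 4 fusions against pUC19, 0 list genes passed an adjusted p of 0.05. In the fit of the DNMT3A and DNMT3B fusions against the DNMT1 and EGFP fusions, 19 of 88 list genes tested passed, 12 higher and 7 lower (21.6%, against 11.0% of all genes). Without the DNMT3A fusion library 0 passed, and without that of DNMT3B 1 passed, with 18 and 53 calls over all genes. Without the DNMT1 fusion library 37 of 89 list genes passed (41.6%, against 22.5% of all genes), and without that of EGFP 42 of 89 (47.2%, against 24.7%). Examples, chosen after their values were seen, were KDM2A (log2 fold change 0.92 ± 0.12 SE), whose product binds unmethylated CpG, the uracil glycosylase UNG (0.87 ± 0.12), the heterochromatin protein gene CBX5 (-1.36 ± 0.12) and IDH1 (-1.06 ± 0.14), whose product makes the TET cofactor 2-oxoglutarate.

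For each member with at least 50 reads in every library and no fusion, the 3 genes with the most similar 4 log2 ratios to pUC19 were sought among 10933 genes of at least 5 TPM on average. They were MANBA, NARS2 and ZNF354A for UHRF2 (root mean square difference 0.0806 to 0.0856), and 1.33% of the genes lay within 0.2 of it. For TET2 they included CCNF and CARD8 (0.0625 and 0.0659, with 1.70% within 0.2), and for TET3 HELZ, SP1 and PEAK1 (0.0515 to 0.0587, with 2.31% within 0.2). For TET1 they were EXOC6B, RASSF3 and XRCC4 (0.0450 to 0.0615, with 5.27% within 0.2). The patterns of UHRF1 and TDG were common ones, with 11.2% and 8.86% of genes within 0.2: the closest were ZNF516, TARS and DNAJC18 for UHRF1 and C11orf68, MAP7D2 and SESTD1 for TDG. All of these ratios share pUC19 as their reference.

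The libraries held 26.25 to 36.14 M reads assigned to genes. The 7 markers of HEK293T were present in all 5, for example KRT18 at 90.0 to 120.0 TPM and PAX2 at 6.08 to 7.72 TPM. Of 6 markers of other cell types, COL1A2 and CDH5 were at 0 in all libraries, and the summed level of the 6 was 0.981 to 1.52 TPM in the fusions and 1.5 TPM in pUC19. The neurofilament genes NEFM and NEFL, which HEK293T expresses, were at 193.0 and 90.7 TPM in pUC19 and at 34.3 to 60.2 and 28.9 to 35.7 TPM in the fusions. KRT8 was at 36.1 TPM in pUC19 and at 51.0 to 70.8 TPM in the fusions, while KRT18 and PAX2 in the fusions lay around their pUC19 levels. The summed level of the 7 HEK293T markers was 480.7 TPM in pUC19 and 261.9 to 342.1 TPM in the fusions, and without the neurofilament genes it was 197.0 TPM and 198.7 to 251.9 TPM. The neurofilament genes and KRT8 differed between pUC19 and all 4 fusions, as did UHRF2, DNMT3A where it could be read, and the TET genes, and their part in those differences was not tested.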

How the data were processed

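Groups were taken from the sample titles. The authors aligned reads with tmap to RefSeq RNA of hg19 (GRCh37) and kept unique ones; versions were not given in the sources used here. The deposited tables hold a read count per gene, without normalization, a TPM value (count per length, scaled by the authors to a fixed sum) and a coverage in percent, which was not used in a comparison. Genes missing from a table were set to 0. Rows without a gene symbol held at most 0.00581% of reads. Fusion reads fall on the DNMT1, DNMT3A and DNMT3B rows, and keeping unique reads can lose those shared with near-identical copies.

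Members and lists were chosen with earlier results of these data known. Named were all 10 members, per list and direction the 2 genes whose log2 ratio nearest to 0 was the farthest from it, relative to pUC19, over the 4 fusions (at least 20 reads in pUC19 or in all 4, same direction in all 4), list genes called in all 4 fusions, and the 3 genes most similar to each member. Pairs were compared with an exact conditional binomial test given the totals, after a pseudocount of 0.1 TPM for the ratio, at the thresholds of the study. These ratios understate changes of low genes. Intervals are exact at 95% and cover counting error only. Groups of libraries were compared with edgeR 4.0.16 (R 4.3.3) on counts: TMM, filterByExpr, quasi-likelihood F-test. DNMT1, DNMT3A and DNMT3B were fitted without their own fusion library. Alternatives were DESeq2 1.42.0, median-ratio factors, no filter, scaling without the fused rows, a loess offset (span 0.3) on GC content and length, leaving out each fusion, and for pairs a pseudocount of 1 TPM, TMM, edgeR's exact test at a dispersion set by a coefficient of variation of 0.2, only genes reaching 1 TPM, a looser adjusted p of 0.05, and thinning to equal depth. Scripts were tested on simulated data. Positions of promoter windows are those of RefSeq on GRCh38.p14 and were not mixed with the build of the files. Python 3.11.15, numpy 2.4.6, pandas 2.3.3 and scipy 1.17.1 were used. Some of the genes that the naming rule selects are not reported here.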

Additional observations from a re-analysis of the deposited data

Results flagged for a closer look

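UHRF1 lay below pUC19 in the DNMT1 fusion library (ratio of TPM 0.944) and above it in the other 3 fusion libraries, most in that of DNMT3B (ratio 1.33), which drew attention because single libraries under the same contrast lay on opposite sides of the control. The difference between these ratios was not tested by itself. In the edgeR fits between fusions, UHRF1 was 0.23 higher on the log2 scale with DNMT3A and DNMT3B than with DNMT1 and EGFP (adjusted p = 0.234) and, with EGFP left out, 0.32 higher than with DNMT1 (adjusted p = 0.0293, where 24.7% of all genes passed). The lower side turned to a log2 ratio of 0.045 under TMM scaling.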

How the results depend on the processing

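The count of members called against pUC19 and against dCas9-BFP-EGFP was 0 under each of the 7 alternatives run for these pairs, and 0 in the fit of 4 fusions against pUC19 under each of its alternatives. In the fit of the DNMT3A and DNMT3B fusions against the DNMT1 and EGFP fusions, leaving out a library gave 0 to 1 members, the 1 being UHRF1 without the EGFP fusion library. The count over all genes in that fit was 1694, 3536 without the DNMT1 fusion, 18 without DNMT3A, 53 without DNMT3B, 3850 without EGFP and 1052 without a filter; in the other it was 118, 977 with DESeq2, 252 without a filter and 65 without the DNMT3A fusion. Where an arm kept 1 library, it was assumed to vary like the rest. With pUC19 alone as the baseline the excess of DNMT1 was 14406.0 TPM and that of DNMT3A 16733.1 TPM. Signs turned only for ratios close to 1: under TMM scaling UHRF1 in the DNMT1 fusion against pUC19 (log2 0.045) and, against EGFP, DNMT3A with the DNMT1 fusion (0.080) and TET1 with DNMT3B (0.0082), and without the fused rows DNMT1 (0.0090) and TET1 (0.043) with DNMT3B against EGFP. In the fit by kind of domain, TET1 turned to 0.0014 and TET2 to 0.061 with the GC and length offset, and with 1 library left out TET1 ranged from -0.34 to 0.072 (without DNMT3A), TET2 from -0.32 to 0.22 (without EGFP), TET3 from -0.038 (without DNMT1) to 0.36 and TDG from -0.049 (without DNMT1) to 0.24. The cause was not tested. No paired analysis was possible because each group was 1 library and the labels give no replicate numbers. pUC19 could not be left out, being the only control. For the gene lists, 6 alternatives chosen after seeing the data gave 20 to 24 called genes against 23, and SETD1B kept 2 of its 4 calls with a pseudocount of 1 TPM.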
